A study of Mus musculus with 6 samples.

Results

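The Obox genes are a mouse family of oocyte-specific homeobox genes. The 6 genes Obox1, Obox2, Obox3, Obox5, Obox6 and Obox7 were taken by symbol from a table of 36065 gene records, and all 6 had a record. RNA was measured in wild-type mouse 1-cell embryos cultured in vitro, in 3 groups of 2 biological replicates. The control embryos received DMSO, the solvent. The CBR embryos received CBR-5884, an inhibitor of serine synthesis, and the CBR+SAM embryos received CBR-5884 and S-adenosylmethionine (SAM), the methyl donor of most cellular methylation reactions. The study asked what serine metabolism does in the zygote. Doses, culture times and the number of embryos behind a library are not given in the sources used here.

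Homeobox genes encode transcription factors that bind DNA through a homeodomain, of which the third helix lies in the major groove. Obox1, Obox2, Obox5 and Obox7 are known as maternal members, whose transcripts the oocyte stores, and Obox3 as a member transcribed from the embryo's own genome. Obox proteins are known to act redundantly in activating the mouse embryonic genome, a process during which maternal RNA is cleared.

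Values are abundance signals that resemble the length-divided abundance kallisto writes, and levels are compared between genes on that reading. A further scaling of the libraries, not stated in the sources used here, had been applied, and the values are relative to the other RNA of a library. A change in the amount of an Obox RNA per embryo and a change in the rest of the RNA therefore cannot be told apart. Oocyte markers were present: 16 of 17 oocyte and zygote markers had a record and all 16 reached a signal of 1 in at least 2 libraries, with sums of 27379 to 34060 per library. Of 13 cumulus and granulosa markers 2 did, Cyp19a1 at 8.14 to 13.6 and Cyp11a1 at 0.716 to 1.46. The list summed to 9.59 to 15.3, most of it Cyp19a1, and Amh and Inha were at or near 0. Of 7 sperm markers 1 did, of 7 blood markers 0 and of 6 oviduct markers 2, with sums of at most 16.3. The CBR+SAM replicates were the least alike: the log2 differences over records had an SD of 0.54 within CBR+SAM, 0.35 within DMSO and 0.34 within CBR.

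The 6 genes lie on chromosome 7 (mm10, GENCODE M21 annotation). Obox7 spans chr7:14659496-14665996, Obox2 chr7:15388721-15398545, Obox1 chr7:15388948-15556866 and Obox5 chr7:15750131-15759800, all on the + strand. Obox3 spans chr7:15479825-15639902 and Obox6 chr7:15833241-15839678, both on the − strand. The annotated span of Obox1 overlaps those of Obox2 and Obox3, and whether strand was used in counting is not given in the sources used here. A coding stretch of the homeobox, running into the third helix, shows how close the members are, which bears on how reads can be assigned to them. It holds 96 bases in 5 members and runs across an intron, so the coordinates span more bases than are printed. Capitals mark bases that differ from, or do not align with, Obox1.
Obox1 (chr7:15555624-15556165, + strand): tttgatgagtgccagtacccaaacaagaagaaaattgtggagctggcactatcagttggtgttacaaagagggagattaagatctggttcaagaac
Obox2 (chr7:15397307-15397848, + strand): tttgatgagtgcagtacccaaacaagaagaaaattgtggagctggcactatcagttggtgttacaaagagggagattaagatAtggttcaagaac
Obox5 (chr7:15757998-15758553, + strand): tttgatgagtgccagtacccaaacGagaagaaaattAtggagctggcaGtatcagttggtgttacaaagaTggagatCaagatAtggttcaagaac
Obox7 (chr7:14664499-14665282, + strand): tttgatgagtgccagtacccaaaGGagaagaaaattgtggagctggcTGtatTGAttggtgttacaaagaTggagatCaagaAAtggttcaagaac
Obox3 (chr7:15626311-15626876, - strand): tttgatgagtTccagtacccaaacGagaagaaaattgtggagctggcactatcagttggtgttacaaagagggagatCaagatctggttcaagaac
Obox6 (chr7:15833936-15834460, - strand): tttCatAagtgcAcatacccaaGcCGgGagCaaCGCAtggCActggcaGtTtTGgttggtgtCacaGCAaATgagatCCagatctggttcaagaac

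Obox2 differed from Obox1 by 1 aligned base in this stretch and was 1 base shorter, with 95 bases. Its annotated coding sequence had 151 codons against 204 in Obox1, and the codons of the third helix, found from codon 141 of Obox1, Obox3, Obox5 and Obox7, were not found in its reading frame. In Obox6, the most distant member, 26 bases differed or did not align, with 95 of 96 aligned, and these codons began at codon 192. With 1 transcript aligned per gene and gaps left out, Obox1 and Obox2 were 99.2% identical across 1459 aligned bases. Obox1 was 94.3% identical to Obox5 (1218 aligned bases), 93.4% to Obox7 (1215), 90.2% to Obox3 (1316) and 81.3% to Obox6 (1174).

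This likeness limits how far reads can be told apart. Kallisto, the quantifier named in the submitters' processing notes, matches reads by short words of sequence, of 31 bases by default; the setting used is not given in the sources used here. Of the 31-base words in Obox1 transcripts 28.8% occurred in no other record of the table, and in Obox2 19.7%. Obox7 had 55.1%, Obox5 61.3%, Obox3 68.9% and Obox6 85.4%. Of the Obox1 words 65.8% also occurred in Obox2, and of the Obox2 words 73.1% also occurred in Obox1. The split between Obox1 and Obox2 is therefore uncertain, and their sum is given beside them below.

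**Figure D1:**
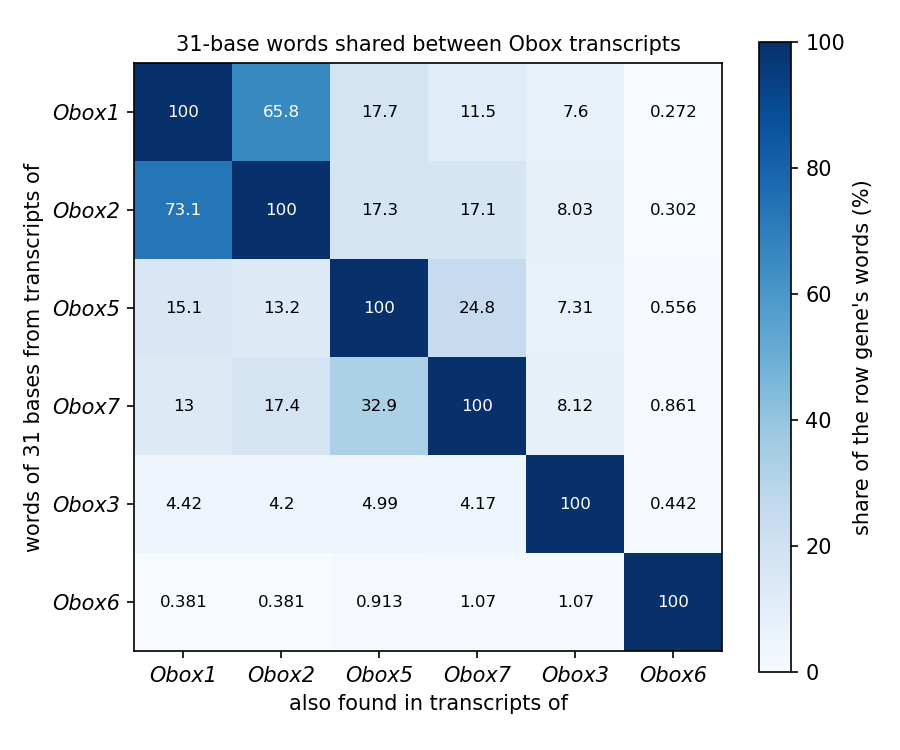
Share (%) of the 31-base words of each row gene's transcripts that also occur in the transcripts of each column gene. Obox1 and Obox2 share most of their words, 65.8% and 73.1%, while Obox6 shares at most 1.07% with any other member.

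The maternal members were among the most abundant transcripts of these embryos. Obox1 stood at 5421 and 5608 in the DMSO pair, 6130 and 6723 in the CBR pair, and 6476 and 7071 in the CBR+SAM pair, ranking between 13 and 19 of all records in each library. All 4 inhibitor-treated libraries lay above both DMSO libraries. Obox2 stood at 3627 and 3749 in the DMSO pair, 4608 and 4708 in the CBR pair, and 3661 and 4803 in the CBR+SAM pair. Both CBR libraries lay above both DMSO libraries, and the CBR+SAM libraries fell on either side, 1 at the DMSO level and 1 above CBR.

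Obox5 stood at 3613 and 3822 in the DMSO pair, 3835 and 4474 in the CBR pair, and 4060 and 4485 in the CBR+SAM pair. The lower CBR library exceeded the higher DMSO library by a narrow margin. Obox7 was lower, at 531 and 602 in the DMSO pair, 479 and 616 in the CBR pair, and 617 and 857 in the CBR+SAM pair. Its CBR and DMSO libraries overlapped, and CBR+SAM replicate 2 was the highest.

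Obox3 and Obox6 were far lower. Obox3 stood at 2.50 and 2.52 in the DMSO pair, 2.08 and 3.46 in the CBR pair, and 2.57 and 4.63 in the CBR+SAM pair, and Obox1 exceeded it 1529- to 2944-fold. The 2 treated groups spread more widely than the DMSO pair. With its shortest transcript, of 528 bases, the Obox3 values correspond to about 17.3 to 43.7 reads a library, estimated as for Obox6 below. Whether this spread exceeds counting error was not tested. Obox6 was at 0.193 and 0.0392 in the DMSO pair, 0.221 and 0.285 in the CBR pair, and 0 and 0.0324 in the CBR+SAM pair. From the spacing of low values in each library these correspond to about 0 to 8.71 reads, and 3 reads would give 0.0982 to 0.121. Obox6 was below the limit for testing, a signal of 1 in at least 2 libraries, and no fold is given for it.

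**Figure D2:**
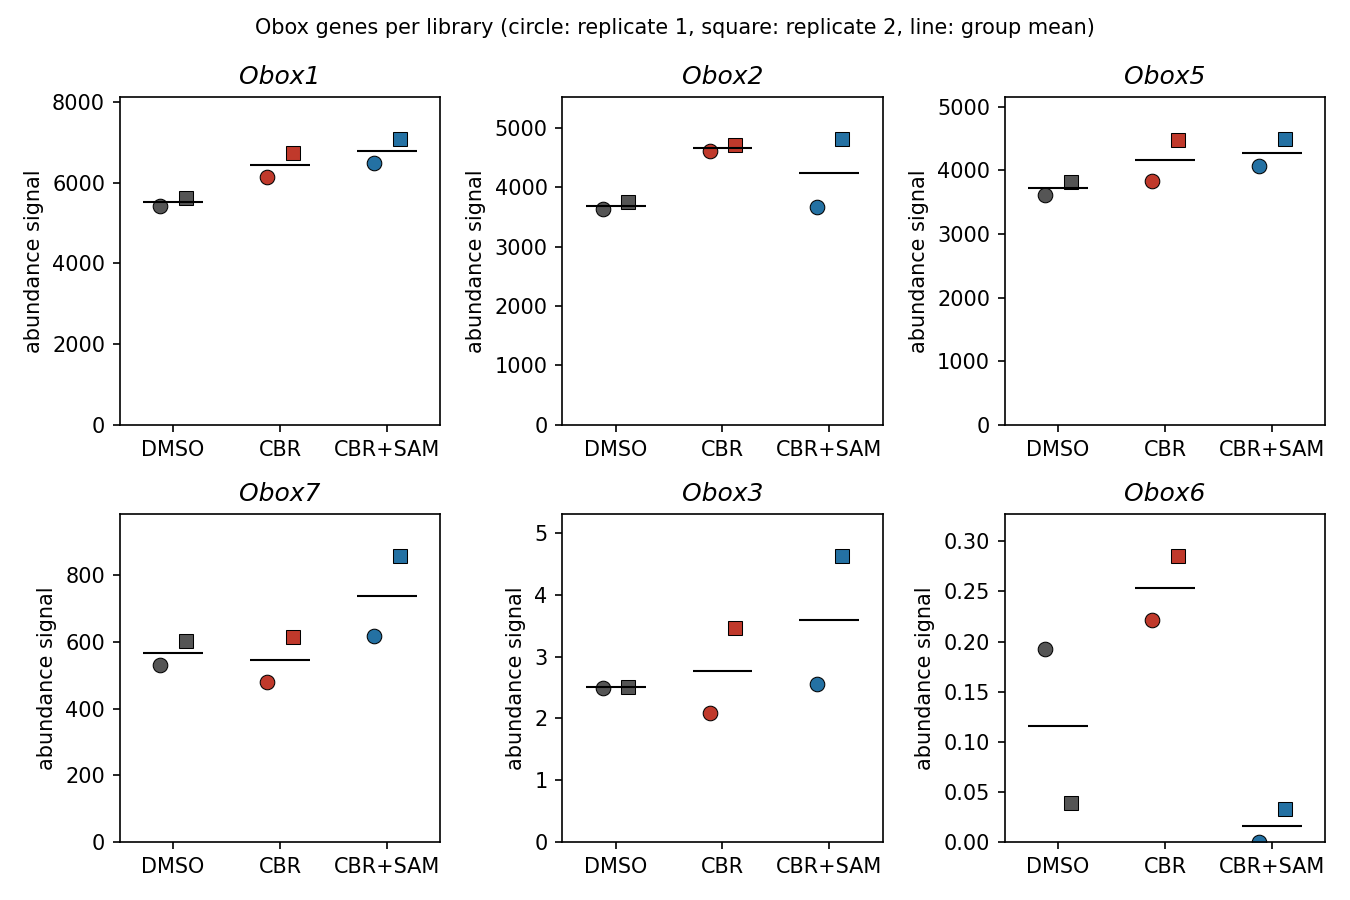
Abundance signal (vertical axes, each from 0 with its own scale) of the 6 Obox genes in each library by group; circles are replicate 1, squares replicate 2 and lines group means. Obox1, Obox2 and Obox5 lie between 3613 and 7071, Obox7 between 479 and 857, Obox3 under 5 and Obox6 under 0.3.

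In order of level, Obox1 came first in every library, with Obox2 and Obox5 next. Those 2 overlapped in range, 3627 to 4803 and 3613 to 4485, and were not separated beyond their spread. Obox7, Obox3 and Obox6 followed in that order in every library. Obox1 made up 40.7% to 43.7% of the summed signal of the 6 genes, Obox2 24.7% to 30.6%, Obox5 25.5% to 27.7% and Obox7 3.18% to 4.98%. The sum itself was 13195 and 13784 in the DMSO pair, 15054 and 16524 in the CBR pair, and 14816 and 17221 in the CBR+SAM pair, or 1.34% to 1.65% of a library's total signal. The CBR to DMSO ratio of the mean sums was 1.17, the CBR+SAM to DMSO ratio 1.19 and the CBR+SAM to CBR ratio 1.01. The sum of Obox1 and Obox2 depends less on the split between them than either value does. It is not free of it, since values are length-divided and transcript lengths differ. Of the Obox1 and Obox2 words 17.7% and 17.3% also occurred in Obox5. Together Obox1 and Obox2 gave 9048 and 9357 for DMSO, 10738 and 11431 for CBR, and 10137 and 11874 for CBR+SAM. All 4 inhibitor-treated libraries were above both DMSO libraries, and the CBR+SAM libraries lay on either side of the CBR libraries. The ratio of Obox1 to Obox2 was 1.33 to 1.50 in the DMSO and CBR libraries and in CBR+SAM replicate 2, and 1.77 in CBR+SAM replicate 1.

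With the inhibitor, no Obox gene passed the test. In limma's fit over 12249 records, 0 of the 5 tested members passed an adjusted p of 0.05 in CBR against DMSO, beside 0% of all records. At an unadjusted p under 0.05 the members again gave 0, and all records 260, or 2.12%. In some alternatives Obox2 passed that unadjusted level and no adjusted one. Its limma unadjusted p was 0.00688 (adjusted p = 0.975) in a fit of the 4 libraries compared and 0.0240 (adjusted p = 0.999) under library weights. In these fits 543 and 548 of all records passed that level, more than the 260 above. Leaving out either CBR+SAM library kept the Obox2 difference at 0.34. Its spread then came from the same 4 libraries as in the fit of those 4, so this adds no separate result. Obox2 had the largest fitted difference, 0.34 on the log2(value + 1) scale (SE 0.17, 95% interval −0.06 to 0.73, limma adjusted p = 1.00), with group means of 4658 ± 71.2 and 3688 ± 86.7 (SD, n = 2 each). Obox1 differed by 0.22 (interval −0.11 to 0.55), Obox5 by 0.16 (−0.20 to 0.51), Obox3 by 0.08 (−0.60 to 0.76) and Obox7 by −0.06 (−0.55 to 0.43). The Obox5 difference was 0.046 without CBR replicate 2 and 0.27 without CBR replicate 1. Obox3 gave −0.19 and 0.35, and Obox7 −0.24 and 0.12, without the same libraries. The CBR libraries lay wholly above the DMSO libraries for 3 of 5 members, Obox1, Obox2 and Obox5, as for 15.7% of all records. Among the 154 records with a mean of at least 1000, where these 3 belong, 3 of 3 members did so against 33.1%. In the other direction the counts were 0 of 5 and 17.3%.

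Adding SAM to the inhibitor gave no call among the members either. In CBR+SAM against CBR 0 of 5 passed by limma, beside 0.00816% of all records, which is 1 record. At an unadjusted p under 0.05 the counts were 0 members and 3.09% of all records. With the replicate number as a block Obox7 passed that level, with a limma unadjusted p of 0.0233 (adjusted p = 0.903). So did 554 of all 12249 records. In the fit without the filter on low values 1 of 6 members passed it, Obox6, as did 1000 records. Obox6 had few reads, as given above, and no fold is given. Obox7 had the largest difference, 0.42 (SE 0.21, interval −0.07 to 0.91, limma unadjusted p = 0.0824, adjusted p = 0.988), with means of 737 ± 170 and 548 ± 96.8 (SD, n = 2 each). It was the 1 member whose groups did not overlap, at 617 against 616 where they came nearest, as for 15% of all records in that direction. Among records with a mean of at least 1000, 0 of 3 members did so against 13%. Lying wholly lower were 0 of 5 members and 12.5% of all records. Without CBR+SAM replicate 1 the Obox7 difference was 0.66, and without CBR+SAM replicate 2 it was 0.18. Obox3 differed by 0.27 (−0.41 to 0.96), Obox1 by 0.08 (−0.26 to 0.41), Obox5 by 0.04 (−0.31 to 0.40) and Obox2 by −0.15 (−0.55 to 0.24).

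CBR+SAM against DMSO shares its libraries with both comparisons above. Again 0 of 5 members passed by limma, beside 0.00816% of all records, and at an unadjusted p under 0.05 there were 0 members and 2.14% of all records. The fitted differences were 0.36 for Obox7, 0.35 for Obox3, 0.30 for Obox1, 0.20 for Obox5 and 0.19 for Obox2, and each 95% interval included 0. Without CBR+SAM replicate 1 these were 0.60, 0.68, 0.36, 0.27 and 0.38. Without CBR+SAM replicate 2 they were 0.12, 0.024, 0.23, 0.13 and −0.010. Obox1, Obox3, Obox5 and Obox7 did not overlap with DMSO, 4 of 5 members against 12.4% of all records, while 0 of 5 and 12.1% lay wholly lower. Where the mean was 1000 or more, 2 of 3 members and 20.1% of records lay wholly higher. Intervals extended 0.33 (Obox1) to 0.68 (Obox3) on either side of a difference with 2 libraries a group.

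**Figure D3:**
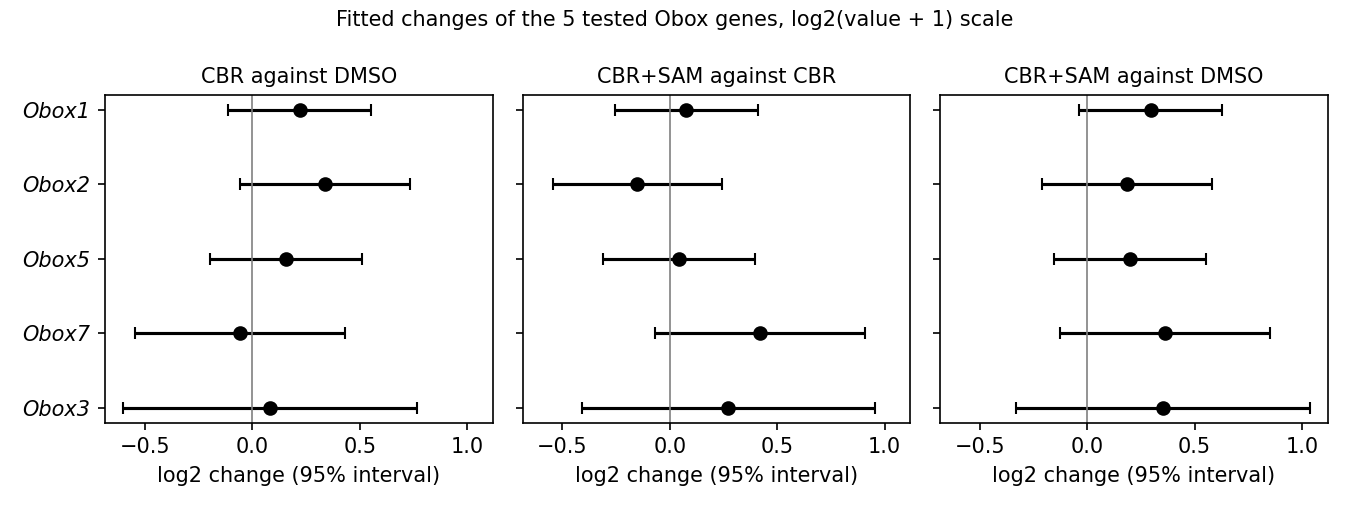
Fitted difference (horizontal axis, log2(value + 1) scale) of the 5 tested Obox genes in the 3 comparisons; points are limma estimates and bars 95% intervals. Every interval crosses 0, and the largest estimate is 0.42 for Obox7 in CBR+SAM against CBR.

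The members also differed between replicates of a group. Replicate 2 exceeded replicate 1 in all 3 groups for 5 of the 5 tested members, as for 16.9% of all records, and 20.1% where the mean was 1000 or more. For the sum of the 6 genes replicate 2 was 1.04, 1.10 and 1.16 times replicate 1 in DMSO, CBR and CBR+SAM. Column totals gave 0.971, 1.01 and 1.06. The part of the replicate number in the group differences was not tested beyond a fit with a replicate term, under which 0 members passed.

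Across the 6 libraries, on the log2 scale, Obox1 and Obox5 had a Pearson correlation of 0.94, Obox3 and Obox7 of 0.92, and Obox2 and Obox7 of 0.33. These points share libraries and scaling, and Obox transcripts share sequence. The genes most like the summed Obox level, among 4718 compared, were Pnma5 (r = 0.99), Ndufs1, a subunit of mitochondrial complex I (r = 0.99), and Gle1, an mRNA export factor (r = 0.98). In all, 36 genes, or 0.763%, had r over 0.9. Obox6, at 0 to 8.71 reads, was too low for a correlation to be read; of the 4718 genes 10, or 0.212%, had r over 0.9 with it, with Ppp1r15a, Tarsl2 and Hsd17b13 the nearest.

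Among 54 records with an Obox symbol, 47 were pseudogenes. The 48 records outside the 6 genes held 0.120% to 0.213% of all Obox signal in a library, and 39 of them had a mean under 1. The others were Obox3-ps5, Obox4-ps28, Obox3-ps1, Obox4-ps27, Obox4-ps12, Obox3-ps6, Obox4-ps37, Obox4-ps30 and Obox4-ps3. Obox3-ps5 was the highest, at 3.05 and 3.48 in the DMSO pair, 4.33 and 5.14 in the CBR pair, and 3.90 and 6.24 in the CBR+SAM pair. Obox4-ps28, inside the annotated span of Obox1, was at 4.75 and 5.54 in the DMSO pair, 1.47 and 1.94 in the CBR pair, and 4.93 and 2.86 in the CBR+SAM pair. Its CBR libraries were the lowest, with a log2 difference from DMSO of −1.19 (SE 0.26, interval −1.80 to −0.58, limma adjusted p = 1.00). How far its reads can be told apart from those of other Obox4 pseudogenes was not computed. Records Obox4-ps19, Obox4-ps20 and Obox4-ps21 had identical values in every library, so their reads cannot be told apart.

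Sequence around the annotated starts was compared because Obox1 and Obox3 differ so much in level. RefSeq windows from 250 bases before to 50 after its annotated start (GRCm38.p6, the assembly of mm10) matched 5 members by symbol: Obox1, Obox2, Obox3, Obox5 and Obox7. The longest run of bases common to all 5 windows had 25 bases, printed in capitals here.
Shared run: GTGAGAATTAAGGATTTGAATATTG

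On either strand the run occurred in 5 of 32851 windows (0.0152%), those of these 5 genes; it was chosen for being shared, so this count is a description. It lies at chr7:15547159-15547183 in Obox1, chr7:15388850-15388874 in Obox2, chr7:15750260-15750284 in Obox5 and chr7:14659624-14659648 in Obox7, all on the + strand, and at chr7:15639862-15639886 on the − strand in Obox3. RefSeq and GENCODE M21 place the starts differently. In each of the 5 genes the run lies in an exon of 1 M21 transcript, while 3 of 6 M21 transcripts of Obox1, 3 of 4 of Obox2, 7 of 8 of Obox3, 2 of 3 of Obox5 and 2 of 3 of Obox7 start after the run begins. Whether it is promoter or transcribed sequence therefore depends on the annotation. In 4 windows a TATATAA stretch began 79 bases after the start of the run, and 3.24% of all windows hold these letters on either strand. The Obox2 window ends 51 bases from the start of the run, so that position was not covered. From the run to the end of the TATATAA, Obox5 and Obox7 each differed from Obox1 at 1 of 86 bases and Obox3 at 7. Obox3 carried the run because the run was chosen as common to all 5 windows. The level of Obox3 was 1529- to 2944-fold below that of Obox1, and whether the run bears on level was not tested. The letters GGATTA, on either strand, occurred in the Obox3 window and in 7.06% of all windows. TAATTG and TAATTA occurred in 0 of the 5 windows, against 2628 and 1738 of all 32851.

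Other regulators of the same stage were read from 3 lists. Of 53 names of homeobox genes of oocyte and early embryo 51 had a record. Of these 25 were tested, and 0 passed in any comparison. In CBR against DMSO 12 were higher and 13 lower, with a median log2 difference of −0.01. The median was also −0.01 over all records, and 0.16 for the 5 tested Obox members. These sets were not matched for level, and 3 of the 5 members belong to the records with a mean of at least 1000. Of those records 33.1% lay wholly higher in CBR than in DMSO, against 15.7% of all records. The homeobox gene with the smallest p was Duxf3, at 1.30 and 2.41 in the DMSO pair and 1.06 and 0.796 in the CBR pair. The most abundant were Meis2, at 900 and 1029 in the DMSO pair and 856 and 1250 in the CBR pair, Nobox, an oocyte factor needed for follicle growth, and Sebox. Nobox stood at 95.9 and 103 in the DMSO pair, 90.0 and 94.7 in the CBR pair, and 94.8 and 86.9 in the CBR+SAM pair, far below Obox1.

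Of 57 names of genome activation genes and factors 55 had a record, 38 were tested and 0 passed. In CBR against DMSO 19 were higher and 19 lower, with a median of 0.00. Ubtfl1 had the smallest p, at 0.382 and 0.441 in the DMSO pair and 1.24 and 1.44 in the CBR pair (log2 difference 0.73, limma adjusted p = 1.00). Dppa3, a maternal chromatin protein, was the most abundant, at 13565 and 13631 in the DMSO pair and 14436 and 15271 in the CBR pair. Of 11 oocyte transcription factors 9 were tested and 0 passed, with 2 higher and 7 lower and a median of −0.05. In CBR+SAM against CBR the medians of the 3 lists were −0.01, 0.00 and 0.07, beside 0.01 over all records and 0.08 for the tested Obox members. In CBR+SAM against DMSO they were 0.02, 0.01 and 0.03, beside −0.0048 over all records and 0.30 for the tested Obox members.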

How the data were processed

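RNA was measured in 6 libraries of mouse 1-cell embryos. Per the labels' protocols, the SMART-Seq v4 kit gave the cDNA and Nextera XT the libraries. Fastp, kallisto, DESeq2 and mm10 appear in the submitters' processing notes, without versions or settings. The deposited values are an abundance signal per gene whose columns sum to 956209 to 1059424, so a further scaling, not stated, had been applied. Read counts and depth are not given in the sources used here, so counting error is unknown. The reads behind Obox3 and Obox6 were estimated from the spacing of low values of single-transcript genes. Of these values 73.7% to 79.2% per library fell within 0.1 of a whole number. Of 36065 records 35768 matched GENCODE M21.

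The 12249 records reaching a signal of 1 in 2 or more libraries were fitted with limma 3.58.1 (R 4.3.3, variance trend) on log2(value + 1) over all 6 libraries, with Benjamini-Hochberg adjustment over all of them. A fold on this scale is understated for low genes. Data of 12249 genes were simulated with normal noise. In each draw 100 genes per fold were changed, taken only from those with a signal over about 10. For CBR against DMSO recovery was 43.5% at 2-fold and 86% at 4-fold, with 6.4 false calls per draw. Smaller changes, such as those fitted for the Obox genes, were not simulated. The replicates are biological per the series description. Same-numbered libraries deviated together (correlations 0.60, 0.26 and 0.12 over 5939 genes), so the numbers were treated as pairs in an alternative fit; this pairing comes from the data, since the labels give only the numbers. Transcripts and promoters were compared with Biopython 1.88.

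Members and gene lists were chosen with earlier results of these data known. Named were all members, other Obox records with a mean of at least 1, the 3 genes of each list with the smallest p in CBR against DMSO and the 3 most abundant, and the 3 genes most correlated with the summed level and with Obox6. Some genes this rule names are not reported here. Alternatives changed the pseudocount, filter, scaling, records, libraries, variance model and replicate term.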

Additional observations from a re-analysis of the deposited data

How the results depend on the processing

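The number of members past the threshold was 0 in each comparison under every alternative run, and the fitted differences kept their direction in 259 of 267 alternatives. The other 8 each left out 1 library of the comparison. The 267 also count alternatives that could not move a difference. Those changed only the error model, the records fitted or a library outside the comparison. In CBR against DMSO, Obox7 became 0.03 without DMSO replicate 2 and ranged from −0.24 to 0.12 over the libraries left out, the highest without CBR replicate 1; Obox3 ranged from −0.19 without CBR replicate 2 to 0.35. In CBR+SAM against CBR, Obox5 became −0.03 without CBR+SAM replicate 2 and ranged from −0.068 without CBR replicate 1 to 0.15, Obox3 from −0.056 without CBR+SAM replicate 2 to 0.60, and Obox2 from −0.35 to 0.044 without CBR+SAM replicate 1. In CBR+SAM against DMSO, Obox2 ranged from −0.010 without CBR+SAM replicate 2 to 0.38. The lowest adjusted p of a member was 0.156, for Obox7 in CBR+SAM against CBR without CBR+SAM replicate 1. With a replicate block 0 members passed in each comparison and no other call changed. There were 0, 1 and 1 records called, each shared with the fit without the block. Obox7 then had a limma unadjusted p of 0.0233 in CBR+SAM against CBR (adjusted p = 0.903) and 0.0406 in CBR+SAM against DMSO. In the same 2 comparisons 554 and 340 of all 12249 records had an unadjusted p under 0.05. Leaving out 1 library moved the ratio of summed levels between 1.12 and 1.23 (CBR to DMSO), 0.938 and 1.09 (CBR+SAM to CBR) and 1.10 and 1.28 (CBR+SAM to DMSO), and with columns rescaled to a common sum the CBR+SAM to CBR ratio was 0.984. Obox3 was not tested at a mean of at least 10, and Obox6 was tested only without the filter. The planned scaling by edgeR factors was not run; a trimmed mean scaling, chosen after seeing the data, took its place.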
